A study of Homo sapiens and Mus musculus with 5 samples.

Results

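The locus at 2q33, on the long arm of human chromosome 2, holds 12 SNPs linked to schizophrenia that were tested in a reporter assay across the genes SF3B1, PLCL1 and FTCDNL1 and their neighbours. Its members were all fragments whose SNP is named by a position in a fixed window of chromosome 2, within which the SNPs ran from 197393071 to 200369849. They made up 35 of the 984 fragments and 12 of the 347 SNPs of the series. The rule uses positions and no measured values. Up to 3 fragments carried a given SNP, with 50, 100 or 150 bases before it and 150, 100 or 50 after it, called here the front-50, front-100 and front-150 fragments. In which direction along the chromosome before and after run is not stated in the sources used here. Each fragment could carry allele 1 or allele 2 of the SNP, as numbered in the deposited tables, whose base letters were not used here.

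The assay was STARR-seq, in which a cloned fragment drives its own transcription from a plasmid, so that the fragment's RNA relative to its plasmid DNA measures its activity. The plasmid pool was transfected into 4 established cell lines. SH-SY5Y is a line of human neuroblastoma cells, Neuro-2a one of mouse neuroblastoma cells, and HEK-293T one of human embryonic kidney cells. PC-12 is a rat pheochromocytoma line, although its organism label reads mouse. There were 3 RNA libraries for each of SH-SY5Y, Neuro-2a and HEK-293T and 2, with the numbers 1 and 3, for PC-12. The lines were all set against the same 3 libraries of the plasmid input. None of the lines is brain tissue, and the fragments were read from plasmids and not from their place in the chromosome. The labels name no treatment beyond the transfection.

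An enhancer is a stretch of DNA that raises transcription from a promoter when transcription factors bind to it, and a SNP within one can change that binding. In a reporter assay, RNA above the typical fragment marks a fragment with enhancer-like activity, and RNA below it marks one with less activity than the typical fragment of the pool. SF3B1 encodes a core splicing factor that helps recognise the branch site of introns. PLCL1 encodes a phospholipase C-like protein without catalytic activity that binds inositol phosphates, and FTCDNL1 encodes a protein related to part of a folate-dependent enzyme.

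The 12 SNPs lay in 4 stretches of the locus, spread over 2976778 bases from the first to the last. No source used here names the genome build of the positions, so genes were assigned from the RefSeq table of GRCh38.p14 and hold only if that is the build. The first stretch ran over 117534 bases and held the SNPs at 197393071 (inside SF3B1), 197439853 (nearest gene SF3B1), 197449844 (nearest gene COQ10B, which encodes a mitochondrial coenzyme Q-binding protein) and 197510605. The last of these lay inside HSPE1-MOB4, a readthrough gene that joins a mitochondrial co-chaperonin gene to a gene of the MOB kinase-adaptor family. The second stretch, 116453 bases long, held the 3 SNPs inside PLCL1, at 197942291, 197951938 and 198058744. The third stretch, 100994 bases long, held the SNP at 199850665 inside FTCDNL1, the SNP at 199851396 just 731 bases further on, and the SNP at 199951659 inside TYW5, a gene for a tRNA-modifying hydroxylase. The fourth held the SNPs at 200362139 and 200369849, which lay 7710 bases apart inside SPATS2L, a gene for a nucleolar and stress-granule protein.

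One SNP, at 199851396, lay in a promoter window of the RefSeq table, 204 bases before the start of FTCDNL1. That stretch, GRCh38.p14 chr2:199851193-199851442 on the minus strand, is shown because the fragments around this SNP were among those with the most calls below the input. It covers the 250 bases before the gene's start, 5′ to 3′, with the SNP's base, number 47 of the stretch, in capitals.
FTCDNL1: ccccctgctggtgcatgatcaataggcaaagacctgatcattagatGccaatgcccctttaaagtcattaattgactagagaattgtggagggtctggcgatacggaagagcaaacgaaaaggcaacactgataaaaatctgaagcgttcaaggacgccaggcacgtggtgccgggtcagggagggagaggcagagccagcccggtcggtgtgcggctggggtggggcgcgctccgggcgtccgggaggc
The base letters of alleles 1 and 2 were not matched to it. The stretch had 57.6% G and C, against a median of 58.0% over 35116 promoter windows of the same length, and 15 CG pairs against a median of 11.
Next, 4 motifs were searched on both strands. CCAAT was found once, starting at base 48, the base that follows the SNP, and 32.0% of the promoter windows held it. CACGTG, which reads the same on both strands, was found at base 163, as in 6.34% of the windows. GGGCGG and TATAAA were not found in this stretch, and 42.6% and 10.7% of the windows held them. A match of letters is a description and shows no binding.

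Read totals were 5875437 to 10201521 for the RNA libraries and 6380682 to 8421333 for the input. In the 3 lines with 3 RNA libraries, RNA replicate 1 stood apart from the others over all alleles without a count of 0. Its activity correlated with that in replicates 2 and 3 at r = 0.309 to 0.458, and replicates 2 and 3 of a line correlated at 0.601 to 0.835. Over the alleles of the locus this order did not hold in HEK-293T, where replicates 1 and 3 correlated at 0.591 and replicates 2 and 3 at 0.488. PC-12 has a single pair of RNA libraries (r = 0.496 over all alleles), which cannot show which one stands apart. Over the alleles of the locus, RNA replicate 1 lay closer to the input, with an SD of 0.96 to 1.26 (log2 RNA over input) against 1.22 to 2.50 in the other RNA libraries. Counts of 0 were spread unevenly, with 16.4% of all alleles at 0 in RNA replicate 2 of HEK-293T. RNA replicate 1 was singled out from these same data, and leaving out a library that stands apart can lower the spread. The calls and p-values without it are therefore a description and not a separate test. Values and calls are for all libraries unless RNA replicate 1 is said to be left out, and the calls of activity that this adds are given for each SNP. PC-12 then has 1 RNA library, so its own fits without that replicate are given only in the closing section on processing. The tests between lines without that replicate also use 1 library of PC-12.

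Activity is the log2 ratio of an allele's RNA to its input, each scaled by library size, and was tested with edgeR's quasi-likelihood test at an adjusted p of 0.05. A value of 0 is near, but not at, the median allele of a library. The median over all alleles ran from -0.28 in RNA replicate 2 of HEK-293T to -0.03 in RNA replicate 1 of PC-12. Values in single libraries are log2 of the normalised RNA count over the mean normalised input. The locus had 61 alleles tested in at least 1 line and 54 tested in all 4. In Neuro-2a, 0 of 57 alleles passed above the input and 3 passed below, against 3.94% and 1.7% of all alleles tested. In SH-SY5Y, 3 of 59 were above and 6 below, against 7.55% and 5.57%. In HEK-293T, 0 of 59 were above and 3 below, against 1.35% and 1.02%. In PC-12, 1 of 61 was above and 5 below, against 5.58% and 4.77%. More alleles of the locus were thus below the input than above it in each line, which was not so among all alleles, but the counts are small and the difference between these shares was not tested. The median allele of the locus had a log2 activity of -0.18 in SH-SY5Y, -0.23 in Neuro-2a, -0.30 in PC-12 and -0.46 in HEK-293T, beside medians over all alleles of -0.01, 0.01, -0.01 and -0.11.

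Leaving out RNA replicate 1 raised these counts by several times in the locus and in the whole series alike. The alleles above and below the input were then 10 and 16 of 57 in Neuro-2a (25.1% and 16.2% of all alleles), 13 and 19 of 59 in SH-SY5Y (30.8% and 24.4%), and 9 and 14 of 59 in HEK-293T (19.3% and 12.4%). Of the alleles called without that library, 14 were called in all 3 of these lines, each with the same direction in all 3. The matching share over all alleles was not taken, and these lines share their input libraries. The count is therefore not read as a trait of the locus. Without RNA replicate 2 or 3, the calls numbered 7 and 8 in SH-SY5Y, 5 in both cases in Neuro-2a, and 6 and 2 in HEK-293T. Without any 1 of the 3 input libraries, no allele of the locus passed in Neuro-2a, HEK-293T or PC-12, and 1 passed in SH-SY5Y, allele 1 of the front-50 fragment at 198058744, at -3.80 to -3.78. Among the 39 alleles with a count above 0 in all 11 RNA libraries, 2 were above the input in every one and 3 were below it in every one. The matching shares over all alleles of the series were not taken, and all 11 libraries were set against the same input. The 2 were allele 1 of the front-50 fragment at 197439853 and allele 1 of the front-100 fragment at 197510605. The 3 were allele 1 of the front-150 fragment at 197951938, allele 1 of the front-50 fragment at 198058744, and allele 1 of the front-150 fragment at 199951659.

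In the stretch from SF3B1 to HSPE1-MOB4, the alleles called with all libraries were above the input. The SNP inside SF3B1 gave log2 activities from -0.91 to 0.40 over 20 tests of 5 alleles, and none passed in any line by edgeR. Its inputs were deep, with mean counts of 3476 to 10331 per allele. Without RNA replicate 1, allele 1 of its front-100 fragment was below the input in Neuro-2a at -1.08 ± 0.18 (SE, adjusted p = 0.0133), in HEK-293T at -0.70 ± 0.08 (0.00579) and in SH-SY5Y at -1.04 ± 0.29 (0.0398). Allele 2 of its front-50 fragment was then also below the input in these 3 lines, at -0.98 to -0.53. In SH-SY5Y and HEK-293T, allele 2 of the front-100 fragment was below it at -0.91 and -1.26, and allele 1 of the front-150 fragment above it at 0.65 and 0.56.

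At 197439853, allele 1 of the front-50 fragment was above the input in each RNA library. Its log2 values in replicates 1, 2 and 3 were 0.60, 1.44 and 1.60 in Neuro-2a and 0.57, 1.53 and 1.69 in SH-SY5Y. They were 0.13, 0.63 and 1.33 in HEK-293T, and 0.34 and 1.30 in replicates 1 and 3 of PC-12. Replicate 1 was the lowest in each line, and the range of HEK-293T overlapped those of the other lines. The fitted log2 activity was 1.34 ± 0.32 (SE) in SH-SY5Y, which passed (adjusted p = 0.0483), and 1.27 ± 0.30 in Neuro-2a, which did not (adjusted p = 0.0740). PC-12 had 0.90 ± 0.32 (adjusted p = 0.146) and HEK-293T 0.78 ± 0.35 (0.250). With RNA replicate 1 left out, the allele passed in all 3 lines with 3 RNA libraries, at 1.64 ± 0.07 (SE, adjusted p = 0.000200) in SH-SY5Y, 1.5 ± 0.09 (0.00101) in Neuro-2a and 1.02 ± 0.24 (0.0401) in HEK-293T. Allele 2 of the front-100 fragment then passed below the input in Neuro-2a at -0.95. In the front-50 fragment, allele 2 was not tested.

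At 197449844, near COQ10B, 20 tests gave values from -0.82 to 0.79 and no call in any line with all libraries. The fits without RNA replicate 1 called each of the 5 alleles of this SNP in 1 or 2 lines. Allele 1 was above the input in Neuro-2a and SH-SY5Y, at 0.97 and 0.84 in the front-50 fragment and at 0.28 and 0.57 in the front-100 fragment. Allele 2 was below it in Neuro-2a and HEK-293T, at -0.42 and -0.58 in the front-50 fragment and at -1.46 and -0.73 in the front-150 fragment. In the front-150 fragment, allele 1 was below it in SH-SY5Y at -0.89.

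The highest alleles of this stretch lay at 197510605, in HSPE1-MOB4. Allele 1 of the front-100 fragment had log2 values of 1.10, 2.96 and 2.82 in the 3 RNA libraries of Neuro-2a and 1.15, 2.88 and 2.85 in those of SH-SY5Y. It had 0.39, 1.58 and 2.79 in HEK-293T, and 0.38 and 2.89 in PC-12. All 11 libraries were above the input, and replicate 1 was again the lowest in each line. The fitted activity passed in SH-SY5Y at 2.49 ± 0.48 (SE, adjusted p = 0.0308) and missed the threshold in Neuro-2a at 2.50 ± 0.50 (0.0505), in HEK-293T at 1.90 ± 0.60 (0.143) and in PC-12 at 2.13 ± 0.75 (0.147).

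Allele 1 of the front-150 fragment at the same SNP followed it. Its log2 values were -0.83, 4.0 and 3.91 in Neuro-2a and 0.93, 3.4 and 3.51 in SH-SY5Y. They were 0.17, 2.39 and 3.19 in HEK-293T, and 0.29 and 3.81 in PC-12. Replicate 1 of Neuro-2a was below the input, and the 10 other libraries were above it. The fit gave 2.99 ± 0.68 (SE) in SH-SY5Y, which passed (adjusted p = 0.0440), beside 3.4 ± 1.15 in Neuro-2a (0.139), 2.93 ± 1.02 in PC-12 (0.144) and 2.37 ± 0.75 in HEK-293T (0.143). With RNA replicate 1 left out, both of these fragments passed in the 3 lines with 3 RNA libraries, at log2 values of 2.30 to 2.89 for the front-100 fragment and 2.85 to 3.93 for the front-150 fragment. The front-50 fragment carrying the same allele did not share this level, with fitted values from -0.51 to 0.55 and no call with all libraries. Allele 2 had fits between -0.69 and 0.24 in all 3 fragments and all 4 lines, with no call with all libraries. In the fits without RNA replicate 1, allele 1 of the front-50 fragment passed above the input in SH-SY5Y at 0.65, and allele 2 of that fragment below it in Neuro-2a at -0.92 (adjusted p = 0.0105) and in SH-SY5Y at -0.34 (0.0169).

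Inside PLCL1, the alleles called with all libraries were below the input. The SNP at 197942291 gave log2 activities from -0.75 to 1.53 over 19 tests and no call. With RNA replicate 1 left out, allele 1 of its front-150 fragment passed above the input in SH-SY5Y at 0.75 (adjusted p = 0.0363) and in HEK-293T at 0.83 (0.00426), and allele 2 of its front-50 fragment below it in SH-SY5Y at -0.55 (0.0190). At 197951938, allele 1 of the front-150 fragment was low in every library. Its log2 values were -1.50, -3.48 and -3.36 in Neuro-2a and -3.48, -2.88 and -4.94 in SH-SY5Y. They were -2.19, -3.62 and -4.18 in HEK-293T, and -2.20 and -5.10 in PC-12. The fitted activity passed in SH-SY5Y at -3.54 ± 0.55 (SE, adjusted p = 0.0225), and was -2.47 ± 0.62 in Neuro-2a (0.0804), -3.02 ± 0.97 in PC-12 (0.129) and -3.07 ± 0.58 in HEK-293T (0.0672). Without RNA replicate 1 it passed in Neuro-2a, SH-SY5Y and HEK-293T, at -3.87 to -3.44. Allele 2 of the same fragment was below the input in each of the 8 libraries in which it was counted, with fitted values of -2.51 to -1.78 and no call. In the fits without RNA replicate 1, it passed in SH-SY5Y at -1.71, and allele 2 of the front-50 fragment passed below the input in Neuro-2a at -3.04.

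Allele 2 of the front-100 fragment at 197951938 passed, with all libraries, in Neuro-2a. Its log2 values there were -1.22, -0.74 and -0.97, and the fit gave -0.96 ± 0.18 (SE, adjusted p = 0.0419). The other lines had -0.19, -0.72 and -1.03 (SH-SY5Y), 0.27, -0.90 and -0.65 (HEK-293T), and -0.62 and -1.99 (PC-12). All of these but replicate 1 of HEK-293T were below the input, and the ranges of the 4 lines overlapped. When RNA replicate 1 was left out, the allele passed below the input in all 3 lines with 3 RNA libraries, at -0.88 to -0.77 (adjusted p = 0.00434 to 0.00858).

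The SNP at 198058744 held the lowest alleles of the locus and 7 of its calls below the input over the 4 lines. Allele 1 of the front-50 fragment, with a mean input of 7651 counts, was the only allele of the locus called in all 4 lines. Its log2 values were -2.67, -2.10 and -2.45 in Neuro-2a and -3.94, -3.68 and -3.76 in SH-SY5Y. They were -5.43, -6.85 and -4.40 in HEK-293T, and -3.76 and -4.20 in PC-12. Neuro-2a was the least low and HEK-293T the lowest, with no overlap between either and the other lines, and SH-SY5Y and PC-12 overlapped. Fitted activities were -2.38 ± 0.23 (SE, adjusted p = 0.00954), -3.79 ± 0.18 (0.000991), -5.25 ± 0.71 (0.0404) and -3.96 ± 0.21 (0.00493) in the order in which the lines are given above. The order from Neuro-2a to HEK-293T did not pass the edgeR test of equal activity in the 4 lines (adjusted p = 0.251, unadjusted p = 0.00315). Without any 1 of the input libraries, the calls in Neuro-2a, HEK-293T and PC-12 were lost while the estimates stayed at -2.39 to -2.38, -5.26 to -5.24 and -4.0 to -3.95.

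The front-100 fragment at 198058744 was also low. Its allele 1 had log2 values of -3.44, -3.28 and -3.41 in Neuro-2a and -4.27 and -4.08 in PC-12, and passed in both, at -3.38 ± 0.24 (SE, adjusted p = 0.00439) and -4.18 ± 0.20 (0.00493). In SH-SY5Y it had -5.97 and -5.64 and a count of 0 in the third library, with a fit of -6.38 ± 1.60 (0.0546), and it was not tested in HEK-293T. Allele 2 of that fragment had -4.93 and -4.28 in PC-12 and passed there at -4.57 ± 0.30 (adjusted p = 0.00586). Its other libraries stood at -4.75, -3.45 and -6.78 in HEK-293T, -1.50, -2.28 and a count of 0 in Neuro-2a, and a count of 0, -5.74 and -5.22 in SH-SY5Y. Both alleles of the front-100 fragment were thus below the input in every library with a count above 0. With RNA replicate 1 left out, allele 1 passed in Neuro-2a at -3.37 and allele 2 in SH-SY5Y at -5.44.

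The front-150 fragment at this SNP stood at the other end. Its allele 1 (mean input 816 counts) had -1.21, 2.04 and 2.19 in Neuro-2a and -0.47, 2.18 and 1.82 in SH-SY5Y. Its values were -0.64 and 2.17 in PC-12, and 0.45, 0.63 and 2.29 in HEK-293T. Apart from replicate 1 of Neuro-2a, SH-SY5Y and PC-12, each library was above the input. The fitted values of 1.36 to 1.60 for allele 1 and 0.35 to 1.29 for allele 2 did not pass in any line. When RNA replicate 1 was left out, allele 2 passed in Neuro-2a, SH-SY5Y and HEK-293T at 1.52 to 1.72, and allele 1 in Neuro-2a at 2.09 ± 0.18 (SE, adjusted p = 0.00235) and in SH-SY5Y at 2.04 ± 0.17 (0.00114).

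The placement effect compares the same allele between 2 fragments of 1 SNP, as the log2 activity of the fragment with more bases in front over that of the fragment with fewer. Pairs of the locus that passed numbered 0 of 45 in Neuro-2a (1.22% of all pairs), 1 of 47 in SH-SY5Y (2.35%), 3 of 51 in PC-12 (4.25%) and 1 of 48 in HEK-293T (0.337%). All but 1 of these 5 belonged to the SNP at 198058744. For its allele 1, front-150 over front-50 gave 5.87, 7.48 and 6.69 in HEK-293T and 3.47, 5.85 and 5.58 in SH-SY5Y. The same pair gave 1.46, 4.13 and 4.63 in Neuro-2a, and 3.12 and 6.37 in PC-12. The front-150 fragment was higher in all 11 libraries. The effect passed in HEK-293T at 6.69 ± 0.65 (SE, adjusted p = 0.0307) and in SH-SY5Y at 5.0 ± 0.77 (0.0444), and did not in Neuro-2a at 3.48 ± 1.01 (0.237) or PC-12 at 4.75 ± 1.18 (0.147).

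Front-150 over front-100 for allele 1 of this SNP gave 2.23, 5.32 and 5.60 in Neuro-2a and 3.63 and 6.26 in PC-12, with fits of 4.47 ± 1.13 (SE, adjusted p = 0.179) and 4.94 ± 0.96 (0.0890). SH-SY5Y had 5.50, 7.81 and a count of 0, with a fit of 8.37 ± 2.57 (0.147). For allele 2, PC-12 had 4.66 and 5.05 for front-150 over front-100 and 3.24 and 2.53 for front-150 over front-50. Both passed there, at 4.86 ± 0.30 (SE, adjusted p = 0.0141) and 2.89 ± 0.40 (0.0473). In HEK-293T the allele 2 pair of front-150 over front-100 stood at 5.21, 4.73 and 8.60, with a fit of 6.04 ± 1.23 (0.174). For this pair SH-SY5Y had a count of 0, 7.46 and 6.89, with a fit of 8.49 ± 1.96 (0.0864). Neuro-2a had -0.14, 3.55 and a count of 0, with a fit of 3.87 ± 3.80 (0.699). For front-150 over front-50, HEK-293T had 5.61, a count of 0 and 5.80, with a fit of 7.22 ± 2.53 (0.346). Over both alleles, the front-150 fragment was higher than the others in every library in which both fragments had a count above 0, except for allele 2 in replicate 1 of Neuro-2a, where front-150 over front-100 gave -0.14. The inputs also differed, with means of 816 counts for allele 1 in the front-150 fragment and 7651 in the front-50 fragment, and the part of depth in the difference was not tested.

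The fifth pair was allele 2 at 197951938, front-100 over front-50, in PC-12. Its libraries gave -1.05 and -1.37, and the fit -1.21 ± 0.17 (SE, adjusted p = 0.0473). The other lines gave -1.68, 2.17 and 2.15 (Neuro-2a), -0.05, -0.04 and 1.18 (SH-SY5Y), and 0.22, -0.61 and -0.56 (HEK-293T), with fits of 1.04, 0.36 and -0.32. The libraries of these lines lay on both sides of 0, and the lines did not share a direction. In the fits without RNA replicate 1, the pairs that passed were 21 of 45 in Neuro-2a (29.7% of all pairs), 23 of 47 in SH-SY5Y (49.8%) and 12 of 48 in HEK-293T (25%). Front-150 over front-50 for allele 1 at 198058744 was among 5 pairs that then passed in all 3 lines, at 4.38 to 7.09. How many pairs of the whole series did so was not counted. Without any 1 of the input libraries, 0 pairs of the locus passed in any line. Without RNA replicate 2, 3 passed in HEK-293T and 0 in SH-SY5Y, and without RNA replicate 3, 1 and 3 did.

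In the stretch from FTCDNL1 to TYW5, the alleles called with all libraries were again below the input. The SNP at 199850665, inside FTCDNL1, gave log2 activities from -1.35 to 0.67 over 14 tests and no call. Of these tests, 7 had a count of 0 in an RNA or an input library. The SNP at 199851396, in the promoter stretch shown above, had 7 calls below the input over 3 of its 5 alleles. Allele 1 of its front-100 fragment had log2 values of -1.90, -1.93 and -2.49 in SH-SY5Y, -0.97 and -1.04 in PC-12, and -2.20, -1.62 and -1.80 in HEK-293T. In Neuro-2a, replicates 1 and 3 had -1.14 and -2.05 and replicate 2 was at the level of the input, so that its range overlapped those of the other lines. The fit passed in SH-SY5Y at -2.08 ± 0.23 (SE, adjusted p = 0.00967), in HEK-293T at -1.85 ± 0.26 (0.0404) and in PC-12 at -1.0 ± 0.11 (0.0166), and not in Neuro-2a at -0.82 ± 0.53 (0.399).

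Allele 2 of the front-50 fragment, with a mean input of 10128 counts, passed in the same 3 lines. Its log2 values were -0.96, -1.47 and -1.24 in SH-SY5Y, -0.63 and -0.52 in PC-12, and -1.76, -1.81 and -1.16 in HEK-293T. In Neuro-2a they were 0.04, -0.50 and -0.28. Every library but replicate 1 of Neuro-2a was below the input, and SH-SY5Y and HEK-293T were both lower than Neuro-2a and PC-12 without overlap. The fits were -1.21 ± 0.18 (SE, adjusted p = 0.0202) in SH-SY5Y, -1.55 ± 0.24 (0.0419) in HEK-293T, -0.58 ± 0.10 (0.0467) in PC-12 and -0.23 ± 0.19 (0.507) in Neuro-2a. Without RNA replicate 1 the allele passed in Neuro-2a too, at -0.41 ± 0.10 (SE, adjusted p = 0.0375).

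In that fragment, allele 1, with the deepest input of this SNP at 12582 counts, passed in SH-SY5Y with all libraries. Its log2 values there were -1.30, -1.06 and -0.75, with a fit of -1.02 ± 0.17 (SE, adjusted p = 0.0249). HEK-293T had -1.95, -0.64 and -0.46, and its fit of -0.88 ± 0.39 did not pass (0.248). Values on both sides of the input were found in Neuro-2a, at -0.41, 0.23 and 0.81, and in PC-12, at -0.63 and 0.44. When RNA replicate 1 was left out, the allele passed in SH-SY5Y at -0.87 (adjusted p = 0.00212) and in HEK-293T at -0.54 (0.0121). Allele 2 of the front-100 fragment did not share the low level of allele 1, with fits from -0.25 to 0.54 and no call, and it passed above the input in Neuro-2a at 0.78 without RNA replicate 1. Allele 2 of the front-150 fragment had fits from -1.85 to -0.93 and no call with all libraries, and was called below the input in Neuro-2a, SH-SY5Y and HEK-293T without RNA replicate 1.

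At 199951659, inside TYW5, allele 2 of the front-150 fragment passed in SH-SY5Y, where its log2 values were -0.75, -0.82 and -1.34 and the fit -0.95 ± 0.22 (SE, adjusted p = 0.0434). Neuro-2a had -0.50, -1.28 and -2.22, HEK-293T -0.49, -6.25 and a count of 0, and PC-12 a count of 0 and -1.59. All libraries with a count above 0 were below the input. In the same fragment, allele 1 was below the input in all 11 libraries, from -2.04 to -0.25, with no call. In the fits without RNA replicate 1, allele 2 passed in Neuro-2a at -1.70 and in SH-SY5Y at -1.03, and allele 1 in Neuro-2a at -0.81. The front-50 fragment of this SNP then passed below the input too, with allele 1 in SH-SY5Y at -0.53 and allele 2 in SH-SY5Y at -0.94 and HEK-293T at -1.08. Allele 1 of the front-100 fragment had fits from 0.66 to 1.35 with no call, and without RNA replicate 1 it passed above the input in Neuro-2a, SH-SY5Y and HEK-293T at 1.15 to 1.80.

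In SPATS2L, the 1 call with all libraries was above the input. Allele 1 of the front-150 fragment at 200362139 had 0.72 and 0.55 in PC-12, with a fit of 0.64 ± 0.11 (SE, adjusted p = 0.0401). The other lines had values on both sides of the input, from -0.41 to 0.86, and no call. The highest fitted activities of the locus came from allele 1 of the front-50 fragment at this SNP, at 6.10 in Neuro-2a, 5.51 in PC-12, 5.31 in SH-SY5Y and 4.60 in HEK-293T. That allele had a mean input of 69 counts, the lowest in the locus. Its log2 values were 6.51 in replicate 3 of PC-12 and, in replicates 2 and 3, 6.42 and 6.89 in Neuro-2a, 4.19 and 5.69 in HEK-293T and 5.59 and 6.13 in SH-SY5Y. Replicate 1 had a count of 0 in Neuro-2a, SH-SY5Y and PC-12 and a value of 1.22 in HEK-293T. No line passed with all libraries (adjusted p = 0.204, 0.265, 0.177 and 0.112 by edgeR in the order of the fits), with SEs of 1.24 to 2.88. Without RNA replicate 1 it passed in Neuro-2a, SH-SY5Y and HEK-293T at 5.13 to 6.66, and allele 1 of the front-100 fragment passed above the input in HEK-293T at 1.22. The last SNP of the locus, at 200369849, gave values from -1.32 to 0.51 over 23 tests of 6 alleles and no call. With RNA replicate 1 left out, allele 1 of its front-100 fragment passed below the input in all 3 lines with 3 RNA libraries, at -1.04 to -0.57 (adjusted p = 0.00378 to 0.0307), and allele 1 of its front-150 fragment above it in SH-SY5Y at 0.37 (0.0494).

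The allelic effect is the log2 activity of allele 2 over that of allele 1 in the same fragment, and it is the comparison the series' title asks about. By edgeR, no fragment of the locus passed in any line. The counts were 0 of 22 in Neuro-2a (0.187% of all fragments passed), 0 of 24 in SH-SY5Y (0.166%), 0 of 26 in PC-12 (0%) and 0 of 25 in HEK-293T (0%). An unadjusted p under 0.05 was reached by 2, 4, 2 and 2 of them in that order, against 10.9%, 13.5%, 7.24% and 4.13% of all fragments. DESeq2 called 2, 2, 3 and 0 of them, against 12.7%, 4.49%, 10.7% and 1.98% of all fragments, and limma-voom called none. The same sign in all RNA libraries, with no count of 0, was found in 4 of 22 fragments in Neuro-2a, 6 of 25 in HEK-293T and 10 of 24 in SH-SY5Y. In PC-12 it was found in 10 of 26, but 1 sign is easier to reach there, with only 2 RNA libraries. The matching shares over all fragments were not taken.

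Among fragments whose RNA libraries of a line all had 1 sign and no count of 0, those of the SNP at 197510605 in HSPE1-MOB4 had the largest fitted effect in Neuro-2a, SH-SY5Y and PC-12. In HEK-293T the front-50 fragment at 200362139, given with its low input below, had a larger one. In the front-100 fragment at 197510605, allele 2 over allele 1 gave -1.06, -4.44 and -3.26 in Neuro-2a and -1.33, -3.45 and -2.54 in SH-SY5Y. It gave -0.59, -4.36 and -3.02 in HEK-293T, and -0.14 and -3.39 in PC-12. Allele 2 was the lower allele in all 11 libraries, and the effect in replicate 1 was the smallest in each line. The fits were -2.96 ± 0.92 (SE, unadjusted p = 0.0214, adjusted p = 0.423 by edgeR), -2.44 ± 0.57 (0.00636, 0.354), -2.71 ± 1.02 (0.0427, 0.676) and -1.77 ± 1.13 (0.193, 0.590) in the same order of lines.

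The front-150 fragment of that SNP gave 0.91, -3.99 and -3.35 in Neuro-2a, -0.35, -2.48 and -3.95 in HEK-293T, -1.11, -3.45 and -3.67 in SH-SY5Y, and -0.57 and -3.86 in PC-12. Replicate 1 of Neuro-2a had the opposite sign to the 10 other libraries. The fit was -2.79 ± 0.75 (SE) in SH-SY5Y, with an unadjusted p of 0.0121 and an adjusted p of 0.354 by edgeR, and -2.41 ± 1.45, -2.29 ± 0.97 and -2.22 ± 1.15 in Neuro-2a, HEK-293T and PC-12. The front-50 fragment had smaller effects, with fits of -0.66 to -0.43 in the 3 lines where no count was 0. Without RNA replicate 1, both the front-100 and the front-150 fragment passed in Neuro-2a, SH-SY5Y and HEK-293T. The front-100 fragment then stood at -3.85 ± 0.41 (SE, adjusted p = 0.00793), -3.0 ± 0.30 (0.00278) and -3.69 ± 0.47 (0.0129). The front-150 fragment stood at -3.67 ± 0.24 (0.00355), -3.56 ± 0.11 (0.000249) and -3.21 ± 0.51 (0.0232).

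At 199851396, before FTCDNL1, the front-100 fragment had the opposite sign, with allele 2 the higher allele. Its effects were 0.96, 0.64 and 3.0 in Neuro-2a, 0.62, 1.99 and 3.56 in SH-SY5Y, -0.14 and 1.37 in PC-12, and 0.24, 1.84 and 1.94 in HEK-293T. Replicate 1 of PC-12 was the 1 library of 11 in which allele 2 was lower. The fits were 1.5 ± 0.71 (SE), 2.05 ± 0.79, 0.62 ± 0.53 and 1.35 ± 0.61 in that order of lines, and the smallest p was that of SH-SY5Y (unadjusted p = 0.0446, adjusted p = 0.354 by edgeR). Without RNA replicate 1 it passed in SH-SY5Y at 2.78 ± 0.53 (adjusted p = 0.0163) and HEK-293T at 1.89 ± 0.20 (0.00936). The front-50 fragment of the same SNP had fits of -0.57 to -0.19, in the other direction, and without RNA replicate 1 it passed in Neuro-2a, SH-SY5Y and HEK-293T at -0.94 to -0.45.

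In TYW5, the front-100 fragment at 199951659 gave -0.32 and -3.34 in PC-12, with a fit of -1.83 ± 1.08 (SE, adjusted p = 0.590). In the other lines replicate 1 was positive, at 0.32 in HEK-293T, 0.95 in SH-SY5Y and 1.53 in Neuro-2a, and replicates 2 and 3 were negative, from -2.82 to -0.53. In SPATS2L, the front-50 fragment at 200362139 gave -0.60, -5.61 and -6.02 in HEK-293T, with a fit of -4.48 ± 1.82 (SE, adjusted p = 0.676). Its allele 1 is the one with 69 input counts, and in the other lines at least 1 RNA library had a count of 0 for an allele. The effects of the remaining fragments in which no RNA library had a count of 0 lay between -1.05 and 1.70. With RNA replicate 1 left out, the fragments that passed numbered 6 of 22 in Neuro-2a (30.1% of all fragments), 15 of 24 in SH-SY5Y (46.9%) and 7 of 25 in HEK-293T (20.8%), and 4 fragments passed in all 3 lines. These were the front-100 and front-150 fragments at 197510605, the front-50 fragment at 199851396 and the front-50 fragment at 197449844, near COQ10B, at -1.40 to -0.87. How many fragments of the whole series passed in all 3 lines was not counted. The front-100 fragment at 199951659 passed in 2 lines at -2.64 to -1.85, and the front-50 fragment at 200362139 in 2 at -6.28 to -5.83. The front-150 fragment at 197449844 passed in 2 lines with opposite signs, at -2.51 and 0.70.

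The lines were also compared directly by edgeR's F tests over all 11 RNA libraries and the input. For activity, 0 of 54 alleles of the locus passed, against 0.279% of all alleles, and 3 had an unadjusted p under 0.05, against 6.75%. These were both alleles of the front-50 fragment at 199851396 (allele 2, unadjusted p = 0.00294 and adjusted p = 0.249; allele 1, 0.0348 and 0.661) and allele 1 of the front-50 fragment at 198058744, given above. When RNA replicate 1 was left out, 1 allele passed, allele 1 of the front-50 fragment at 199851396 (adjusted p = 0.0407), against 2.65% of all alleles. For the allelic effect, 0 of 20 fragments passed (0% of all fragments) and 0 had an unadjusted p under 0.05, against 0.778%. With all libraries, a call in one line and not in another was therefore not shown to be a difference between the lines. Without RNA replicate 1, PC-12 entered this test with 1 RNA library. The call for allele 1 of the front-50 fragment at 199851396 was therefore not read as a difference between the lines.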

How the data were processed

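The deposited values are raw read counts, in whole numbers and not normalized, per the file headers, for each allele of each fragment in each RNA and plasmid input library, with 1 table per cell line. Per the labels' protocols, polyadenylated RNA was reverse-transcribed and amplified by PCR, and the libraries are biological replicates with no day or batch named. The p-values therefore measure only the spread between these libraries. The submitters' processing notes name limma 3.40.6. Aligner, counter and genome build were not given in the sources used here.

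Library sizes were set with the trimmed mean of M values (TMM), and counts were tested in R 4.3.3 with the quasi-likelihood test of edgeR 4.0.16, two-sided, with Benjamini-Hochberg adjustment over all features of a line whose mean count reached 10. Each line was fitted alone, RNA against input. Allelic and placement effects had terms for library, for allele or placement, and for its interaction with RNA. SEs follow from each estimate and its F value. Single-library values had 0.5 added to the count, and an RNA count of 0 was given no log2 value. PCR reads are not independent molecules, so depth bounds the counting error alone. The steps were checked on simulated counts with known changes. No simulated library stood apart from the others, so the check does not cover that trait of these data.

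RNA libraries that share a number between lines moved together (r = 0.149 to 0.715 over 15 pairs), so the tests between lines were repeated with the number as a block. RNA and input libraries of the same number did not pair (r = -0.0836 to 0.171 over 11 pairs).

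Values in single libraries are given for alleles, fragments or pairs past the threshold in any line. They are also given for the 3 highest and 3 lowest alleles by the mean of the 4 lines, and for members with an unadjusted p under 0.05 between lines. The same holds for the 2 largest allelic effects and the largest placement effect of constant sign in each line. Some lines without a call are given only as a range or by their counts of 0. A SNP was placed in the protein-coding gene of GRCh38.p14 that contains it, or else the nearest. The locus was proposed, and the lists were chosen, with earlier results of these data known, although the rule for its members uses positions only. Alternatives were DESeq2 1.42.0, limma-voom (limma 3.58.1), total-count scaling, other count minimums, features with a count of 0 left out, a replicate block and each library left out.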

Additional observations from a re-analysis of the deposited data

How the results depend on the processing

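Counts of calls in the locus moved with the test and with the libraries used. With DESeq2, the alleles called for activity numbered 16, 16, 25 and 14 in Neuro-2a, SH-SY5Y, PC-12 and HEK-293T, the fragments called for the allelic effect 2, 2, 3 and 0, and the pairs called for placement 5, 14, 14 and 7. With features that had a count of 0 left out, so that fewer were tested, activity gave 6 calls in Neuro-2a and 6 in HEK-293T, and placement gave 1 in Neuro-2a and 2 in SH-SY5Y. With a replicate block on the number shared by RNA and input, which did not pair these libraries, activity gave 0 calls in each of the 4 lines, with fewer degrees of freedom left. The replicate block changed no count between lines, where the numbers did pair. Leaving out 1 library at a time gave 0 to 26 activity calls in Neuro-2a, 1 to 32 in SH-SY5Y, 0 to 53 in PC-12 and 0 to 23 in HEK-293T. In the same order it gave 0 to 6, 0 to 15, 0 to 24 and 0 to 7 for the allelic effect, and 0 to 21, 0 to 23, 0 to 44 and 0 to 12 for placement. In PC-12 the upper ends rest on 1 RNA library, assumed to vary like the input. Between lines the range was 0 to 1 for activity and 0 to 0 for the allelic effect. The causes of these shifts were not tested.

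Of 1072 recomputed values of named alleles, fragments and pairs, 837 kept their direction and side of the threshold, 115 lost a call, 106 gained one and 14 reversed. For those 14, ranges are over the fits that each leave out 1 library. Activity of allele 1 of the front-50 fragment at 199851396 ranged from -0.055 to 0.53 in Neuro-2a, reversed without RNA replicate 3. In PC-12 it ranged from -0.64 to 0.44, reversed without RNA replicate 1 (0.44), without input replicate 3 (0.017) and with DESeq2 (0.015). At 200362139, allele 1 of the front-150 fragment reversed in SH-SY5Y without RNA replicate 1 (-0.27, the lowest of a range up to 0.44). Allele 1 of the front-50 fragment there, with 69 input counts, reversed with limma-voom in SH-SY5Y (-0.32) and PC-12 (-0.53), and ranged from -9.08 (reversed, without RNA replicate 3) to 6.51 in PC-12. Its allelic effect in PC-12 ranged from -7.33 to 9.94, reversed without RNA replicate 3 (9.94) and with DESeq2 (0.30). The allelic effect of the front-100 fragment ranged from -0.14 (reversed, without RNA replicate 3) to 1.37 at 199851396 in PC-12, and from -0.78 to 0.50 at 199951659 in Neuro-2a, reversed there without RNA replicate 2 (0.25) or 3 (0.50). The placement effect of allele 2 at 197951938, front-100 over front-50, ranged from -0.047 (reversed, without RNA replicate 3) to 0.57 in SH-SY5Y.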
